A study of Mus musculus with 8 samples.

Results

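The 10 transcription factors that specify and maintain midbrain dopaminergic (DA) neurons were read in RNA-sequencing counts of the mouse ventral tegmental area (VTA). They were chosen by name as the rows Pitx3, En1, En2, Nr4a2, Lmx1a, Lmx1b, Foxa1, Foxa2, Otx2 and Sox6 of a table of 54735 genes, and all 10 were among the 16538 genes that passed the filter on low counts. Bilateral VTA punches of 8 DBA2/J pups labelled male and P21 gave 1 library each, 4 from unhandled controls (CTR) and 4 from socially stressed mice (SS). SS pups had been caged with an adult CD1 male for 30 min per day between P14 and P21 (7 days per the labels), and CTR litters had stayed with their mothers. Tissue was taken on the day after the last exposure, according to the study's methods. The question was which of these factors differed between SS and CTR and which did not. The labels do not tie libraries to litters, and the study's methods allowed littermates of the same sex within a group, so the p-values measure the spread between these libraries.

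DA neurons of the midbrain arise from floor plate progenitors under Shh and Wnt signals. The forkhead factors Foxa1 and Foxa2, the LIM homeodomain factors Lmx1a and Lmx1b and the homeodomain factor Otx2 act in these progenitors. Young neurons then switch on the nuclear receptor Nr4a2 (Nurr1) and the homeodomain factor Pitx3. The study places the homeodomain factors En1 and En2 in both early regionalization and later differentiation. Most of these genes stay on after birth, where Nr4a2 and Pitx3 act on genes of dopamine synthesis and transport, En1 and En2 sustain the survival of DA neurons, and Otx2 and Sox6 mark largely separate sets of DA neurons.

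The 250 bases before the transcription start of Pitx3 and En1, the factors with the lowest SS levels relative to CTR, and of Nr4a2, on average the most abundant factor per kb of exon, are shown from RefSeq (GRCm38.p6, 5′ to 3′ on the strand of the gene). Of the 10 factors, 9 matched this table (19 windows), and En2 did not. Capitals mark any match to the letters of 7 motifs searched on both strands.
Pitx3, chr19:46148326-46148575, minus strand: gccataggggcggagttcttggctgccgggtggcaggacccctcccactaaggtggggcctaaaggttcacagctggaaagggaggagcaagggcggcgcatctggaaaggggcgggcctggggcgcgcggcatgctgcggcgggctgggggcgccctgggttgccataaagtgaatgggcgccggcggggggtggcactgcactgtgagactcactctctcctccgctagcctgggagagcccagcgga
En1, chr1:120602237-120602486, plus strand: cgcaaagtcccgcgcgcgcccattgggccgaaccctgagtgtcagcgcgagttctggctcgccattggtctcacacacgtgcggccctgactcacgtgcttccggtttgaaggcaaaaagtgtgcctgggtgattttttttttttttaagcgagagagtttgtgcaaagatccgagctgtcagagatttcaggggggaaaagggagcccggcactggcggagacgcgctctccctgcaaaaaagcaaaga
Nr4a2, chr2:57124004-57124253, minus strand: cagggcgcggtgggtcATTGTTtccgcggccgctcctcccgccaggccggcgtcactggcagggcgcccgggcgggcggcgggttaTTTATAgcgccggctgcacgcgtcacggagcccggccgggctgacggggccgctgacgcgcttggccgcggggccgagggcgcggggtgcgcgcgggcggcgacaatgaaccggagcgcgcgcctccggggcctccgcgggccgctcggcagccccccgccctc
The Pitx3 and En1 windows held none of the motifs. The motifs were NBRE (AAAGGTCA, an element bound by Nr4a receptors, in 1.34% of all 32851 windows of this length), bicoid (TAATCC, 6.25%), homeodomain (TAATTA, 4.84%), FOXA (TGTTTAC, 3.17%), SOX (AACAAT, 9.42%), the TATA box (TATAAA, 12.4%) and CRE (TGACGTCA, 1.55%). The Nr4a2 window held the SOX letters 234 bases and the TATA letters 164 bases before the start, both on the opposite strand. The GC content of the windows was 68.8% for Pitx3, 56.0% for En1 and 80.0% for Nr4a2, above the median of 52.4% over all windows. The Nr4a2 window held 44 CpG, compared with 16 in Pitx3, 19 in En1 and a median of 6. Among the other factors, Foxa1 held the FOXA letters in its only window, Sox6 held the NBRE letters in 1 of 6 windows and Otx2 held the homeodomain letters in 2 of 4. No match overlapped another in the windows shown.

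Libraries held 20036086 to 47319997 counts and are named after their labels (CTR-1, CTR-2, CTR-3, CTR-5 and SS-2 to SS-5). CTR-5 and SS-5 did not match the label male, with 14997 and 6551 counts of Xist against 0 to 3 in the other 6 libraries, and 3 and 0 counts of Y-linked genes against 2293 to 7892. CTR-1 and CTR-2 were the poorest in detected genes, since 434 and 354 of the 1989 genes that averaged 1 to 3 CPM (counts per M counts of the normalized library) had no count there, compared with 1 to 94 elsewhere. All 4 defining markers of DA neurons (Th, Slc6a3, Slc18a2 and Ddc) were present in every library, and their sum was 1548, 758, 624 and 1428 CPM in the CTR mice but 66.5, 67.2, 66.4 and 110 CPM in the SS mice, given here and in what follows by ascending replicate number. In these bulk samples, fewer DA neurons in the punch and less RNA per DA neuron cannot be told apart. In separate mice of the same protocol, the study counted Th-positive VTA neurons by stereology and found no significant effect of stress on their number. The number of DA neurons in these punches was not tested.

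En1, at 4.38% of its CTR level in SS, was the only factor called by edgeR's quasi-likelihood test with Benjamini-Hochberg adjustment at 0.05, and no factor was called higher. Over all genes tested, 0.0847% were called lower and 0% higher by this rule. The SS and CTR values of 4 of the 10 factors did not overlap, with Pitx3, En1, En2 and Foxa2 lower in every SS library, whereas 2.21% of all genes tested were lower without overlap (2.47% higher). The same 4 factors had an unadjusted p under 0.05, as did 3.7% of all genes in that direction (2.85% were higher). Nr4a2, Lmx1a, Lmx1b, Otx2 and Sox6 overlapped between groups and lay between 91.5% and 112% of their CTR mean in SS, and Foxa1 lay between these sets at 66.9%. Of the 10 log2 fold changes (SS relative to CTR), 8 were below 0 and 2 above, with the signs of Nr4a2, Lmx1a, Otx2 and Sox6 depending on the libraries included. Their median was -0.36, compared with 0.0037 over all genes, of which 49.4% were below 0. DESeq2 with default options called Pitx3, En1 and En2 lower and none higher, where 0.31% of its 19349 genes were called lower.

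**Figure D1:**
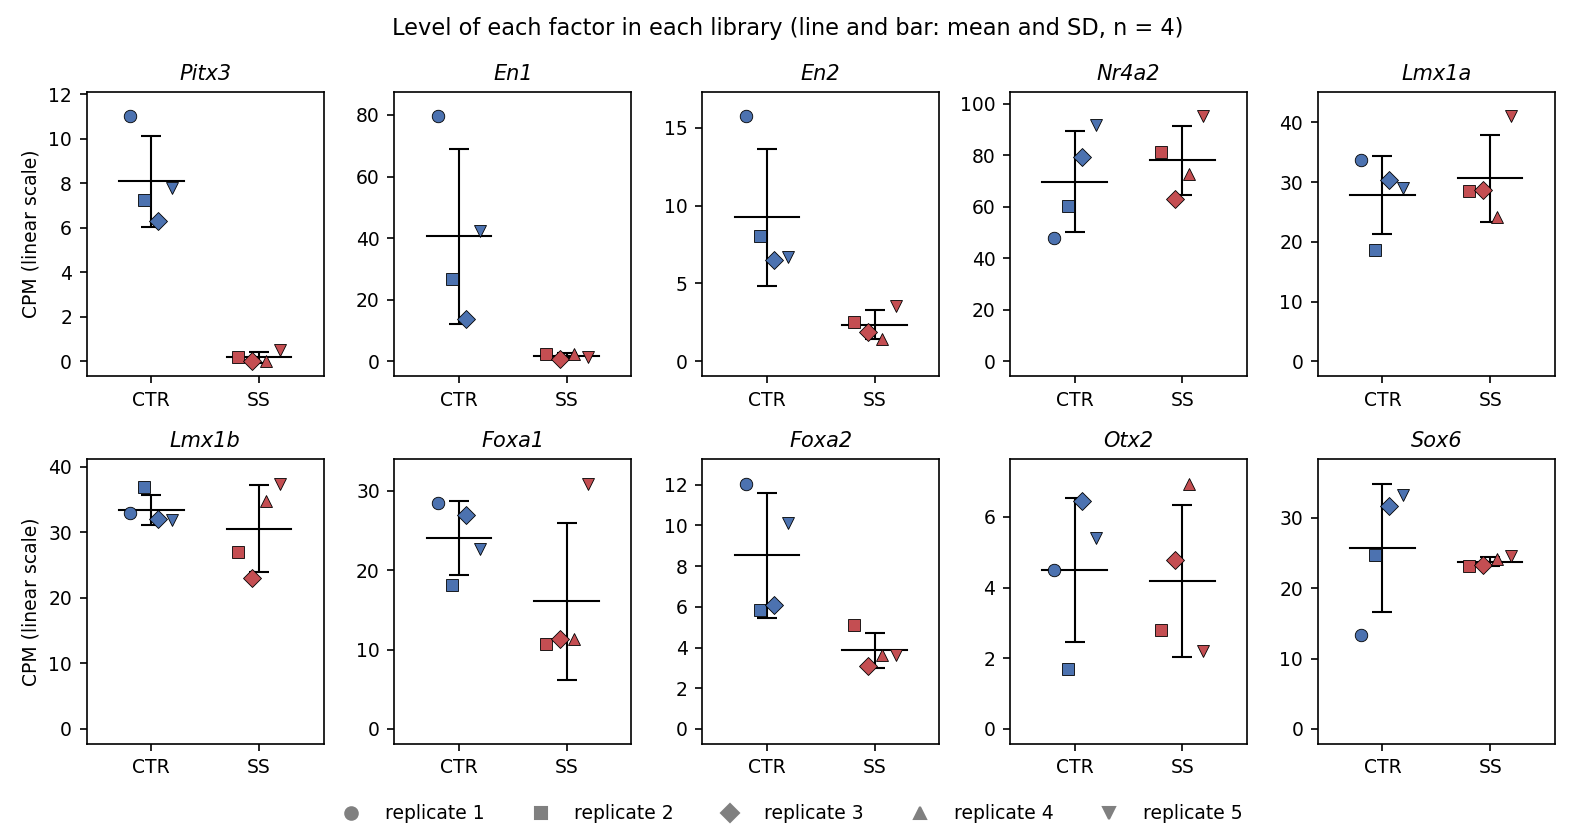
CPM (linear scale) of each of the 10 factors in the 4 CTR (blue) and 4 SS (red) libraries, with a symbol for each replicate number and lines and bars for the group mean and SD. Pitx3, En1, En2 and Foxa2 show no overlap between groups, and in Foxa1 SS-5 lies at 30.8 CPM above the other SS libraries.

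En1 and En2 encode the engrailed homeodomain proteins. En1 (chromosome 1, 120602418 to 120607992, plus strand, GRCm38) had 1538, 665, 318 and 1662 counts in CTR and only 105, 35, 61 and 41 in SS. The CTR libraries spread widely, from 13.7 CPM in CTR-3 to 79.5 CPM in CTR-1, but the lowest of them lay far above the highest SS library at 2.51 CPM. En1 fell from a CTR mean of 40.6 ± 28.4 CPM to an SS mean of 1.78 ± 0.81 CPM (SD, n = 4). The corresponding log2 fold change was -4.52 (SE 0.55), with an adjusted p of 0.0074 in edgeR's test and a 95% interval of the SS level from 1.90% to 9.97% of CTR. Without CTR-5 and SS-5 it was -4.46 and the call was lost (edgeR adjusted p = 0.14), while DESeq2 still called it. The call was also lost without SS-4 (edgeR adjusted p = 0.066) or without SS-5 alone (edgeR adjusted p = 0.054).

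En2 (chromosome 5, 28165694 to 28172166, plus strand) had 304, 199, 150 and 264 counts in CTR and 107, 92, 39 and 92 in SS. As CPM these were 15.7, 8.04, 6.48 and 6.72 in CTR and 2.56, 1.91, 1.47 and 3.54 in SS. No SS library reached the CTR range, and CTR-1 stood above the other CTR libraries. CTR mice averaged 9.24 ± 4.37 CPM and SS mice 2.37 ± 0.90 CPM (SD, n = 4), which is 25.7% of CTR with a 95% interval from 13.99% to 47.2%. The log2 fold change of -1.96 (SE 0.40) did not pass edgeR's test (adjusted p = 0.22), and DESeq2 called it (adjusted p = 0.0010). Without CTR-5 and SS-5 the log2 fold change was -2.34 (edgeR adjusted p = 0.21), and DESeq2 no longer called it.

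Pitx3 (chromosome 19, 46135685 to 46148326, minus strand), a homeodomain factor that DA neurons of the substantia nigra in particular depend on, had 213, 180, 146 and 306 counts in the CTR libraries. The SS libraries had 9, 0, 0 and 13 counts of it. Pitx3 was thus not detected in SS-3 and SS-4, where a count of 0 (limit of 3 counts, counting error only) allows up to 0.0622 and 0.113 CPM, and the lowest CTR library was at 6.31 CPM. CTR mice averaged 8.09 ± 2.04 CPM and SS mice 0.179 ± 0.237 CPM (SD, n = 4). At 2.21% of CTR (95% interval from 0.514% to 8.93%), Pitx3 had the lowest SS level relative to CTR of the 10 factors. Its log2 fold change of -5.55 (SE 0.94) ranked 21 by p among all genes and missed the threshold in edgeR's test (adjusted p = 0.064). DESeq2 called it with an adjusted p of 4.3e-09, but in only 4 of the 8 DESeq2 fits that omitted a library. It was not called without CTR-1, CTR-2, CTR-3 or SS-2, where a missing adjusted p would also count as not called. Without CTR-5 and SS-5 the log2 fold change was -6.69 (edgeR adjusted p = 0.15), and DESeq2 no longer called it.

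Nr4a2 (chromosome 2, 57106830 to 57124003, minus strand) encodes the nuclear receptor that DA neurons need to acquire their transmitter identity. It had 47.7, 60.4, 79.4 and 91.6 CPM in the CTR libraries and 81.1, 63.1, 72.6 and 94.97 CPM in the SS libraries. The groups overlapped, and the lowest value was that of CTR-1. CTR mice averaged 69.8 ± 19.5 CPM and SS mice 77.9 ± 13.5 CPM (SD, n = 4). This gave a log2 fold change of 0.16 (SE 0.19, edgeR adjusted p = 0.90), which turned to -0.13 without CTR-1 and CTR-2. The 95% interval of the SS level ran from 83.0% to 150% of CTR.

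Among the progenitor factors, Lmx1a and Lmx1b direct floor plate cells towards the DA fate. Lmx1a (chromosome 1, 167689237 to 167848741, plus strand) had 33.7, 18.6, 30.4 and 29.0 CPM in CTR and 28.5, 28.8, 24.2 and 41.0 CPM in SS. All SS values but that of SS-5 lay within the CTR range. For Lmx1a the log2 fold change was 0.13 (SE 0.21, edgeR adjusted p = 0.92), with an interval from 79.7% to 151% of CTR, and -0.019 without CTR-5 and SS-5. Lmx1b (chromosome 2, 33560965 to 33640511, minus strand) had 32.9, 36.9, 32.1 and 31.9 CPM in CTR and 27.1, 23.0, 34.8 and 37.4 CPM in SS. SS-2 and SS-3 lay below every CTR library and SS-5 above them. For Lmx1b it was -0.13 (SE 0.17, edgeR adjusted p = 0.90), with an interval from 71.0% to 118% of CTR.

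Foxa1 and Foxa2 are forkhead factors that open chromatin in the floor plate and remain active in adult DA neurons. Foxa2 (chromosome 2, 148042877 to 148046969, minus strand) had 12.04, 5.86, 6.09 and 10.1 CPM in CTR and 5.09, 3.09, 3.65 and 3.66 CPM in SS. The groups did not overlap, although SS-2 and CTR-2 differed by less than 1 CPM. CTR mice averaged 8.53 ± 3.05 CPM and SS mice 3.87 ± 0.86 CPM (SD, n = 4), that is 45.4% (95% interval from 27.6% to 74.7%). The log2 fold change was -1.14 (SE 0.33) and passed neither edgeR's test (adjusted p = 0.59) nor DESeq2's (adjusted p = 0.10), and it was -1.02 without CTR-5 and SS-5. Foxa1 (chromosome 12, 57540628 to 57546916, minus strand) had 28.4, 18.1, 27.0 and 22.6 CPM in CTR and 10.7, 11.4, 11.3 and 30.8 CPM in SS. Thus 3 of the 4 SS libraries lay below every CTR library, and SS-5 lay above them all. The log2 fold change of Foxa1 was -0.58 (SE 0.33, edgeR adjusted p = 0.77) and -1.10 without SS-5 (adjusted p = 0.19), a set of libraries in which DESeq2 called it. SS-5 is also the SS library whose sex transcripts go against its label, and the part of sex in this value was not tested.

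Otx2 and Sox6 showed no difference that held across libraries. Otx2 (chromosome 14, 48657677 to 48673819, minus strand), which in adult mice is kept in part of the VTA, had 4.50, 1.70, 6.44 and 5.40 CPM in CTR and 2.80, 4.79, 6.93 and 2.20 CPM in SS. With 42 to 231 counts per library it was the factor with the widest interval among those that overlapped, from 44.3% to 194% of CTR, and its log2 fold change of -0.11 (SE 0.49, edgeR adjusted p = 0.98) was 0.20 without CTR-5 and SS-5. Sox6 (chromosome 7, 115470872 to 116038796, minus strand), which is used by nigral DA neurons and by oligodendrocyte precursors, had 13.3, 24.7, 31.7 and 33.2 CPM in CTR. In SS it had 23.2, 23.3, 24.2 and 24.5 CPM. The SS libraries lay close together while the CTR libraries spread on both sides of them. For Sox6 the log2 fold change was -0.12 (SE 0.24, edgeR adjusted p = 0.94), with an interval from 64.3% to 132% of CTR, and 0.017 without CTR-5 and SS-5. Genes annotated over Otx2 (Otx2os1, Gm49154) and Sox6 (Sox6os, Gm45025) held 0 to 40 counts each over all 8 libraries, and Elovl3, Gm43610 and Gm38011 over Pitx3, En2 and Lmx1b held none.

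**Figure D2:**
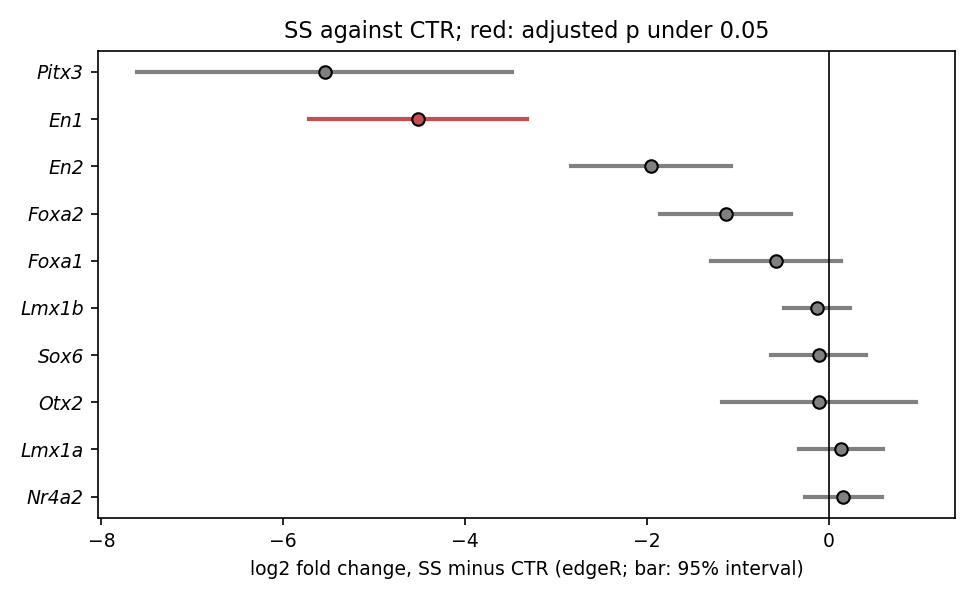
Log2 fold change of the 10 factors in SS relative to CTR from edgeR, with its 95% interval (not adjusted for the number of genes) and En1, the only factor with an adjusted p under 0.05, in red. The intervals of Pitx3, En1, En2 and Foxa2 lie below 0, and those of the other 6 include 0.

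Whether factors differed from each other was tested with the ratio of 2 factors within a library, in which the library's size factor largely cancels. Where a factor had no count, as Pitx3 in SS-3 and SS-4, its ratio is set by the prior count of 2 and is no measure of size. Of 45 pairs, 23 had an exact permutation p of 0.029, the smallest that 4 against 4 libraries allow (two-sided), and after adjustment over the 45 pairs their p was 0.056. All but 3 of these 23 pairs held Pitx3, En1 or En2. The log2 ratio of Pitx3 to Nr4a2 was -3.64 to -2.11 in CTR and -10.1 to -7.39 in SS, a change of -5.83 that depends on this prior count. For En1 to Nr4a2 the change was -4.51 and for En2 to Nr4a2 -2.10, both without overlap. The other 3 pairs set Foxa2 against Nr4a2 (Nr4a2 to Foxa2, change 1.27) and against Lmx1a (Lmx1a to Foxa2, 1.22), and Foxa1 against Lmx1a (Lmx1a to Foxa1, 0.86). Without CTR-5 and SS-5, 29 of the 45 ratios did not overlap between the 3 and 3 libraries left. Fewer libraries make a lack of overlap easier to reach by chance, and the pairs share factors. This count therefore cannot be set against the 23, and the share over all pairs of genes was not computed.

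Ratios were also read between the paralogs of 3 families, which were not tested against each other. En1 exceeded En2 in each CTR library, with a log2 ratio of 1.95 ± 0.69 (SD, n = 4). In SS the ratio was -0.46 ± 0.92 (SD, n = 4), a change of -2.41 (exact permutation p = 0.029, 0.056 over the 45 pairs). Lmx1a to Lmx1b changed by 0.29 (exact permutation p = 0.37) and Foxa1 to Foxa2 by 0.36 (exact permutation p = 0.54), both with overlap between groups. For Pitx3 to En1, the factors with the lowest relative levels, the change was -1.32 with overlap between groups (exact permutation p = 0.17). This value depends on the prior count, as Pitx3 held no count in SS-3 and SS-4. No pair among Nr4a2, Lmx1a, Lmx1b, Otx2 and Sox6 had an exact permutation p below 0.257.

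**Figure D3:**
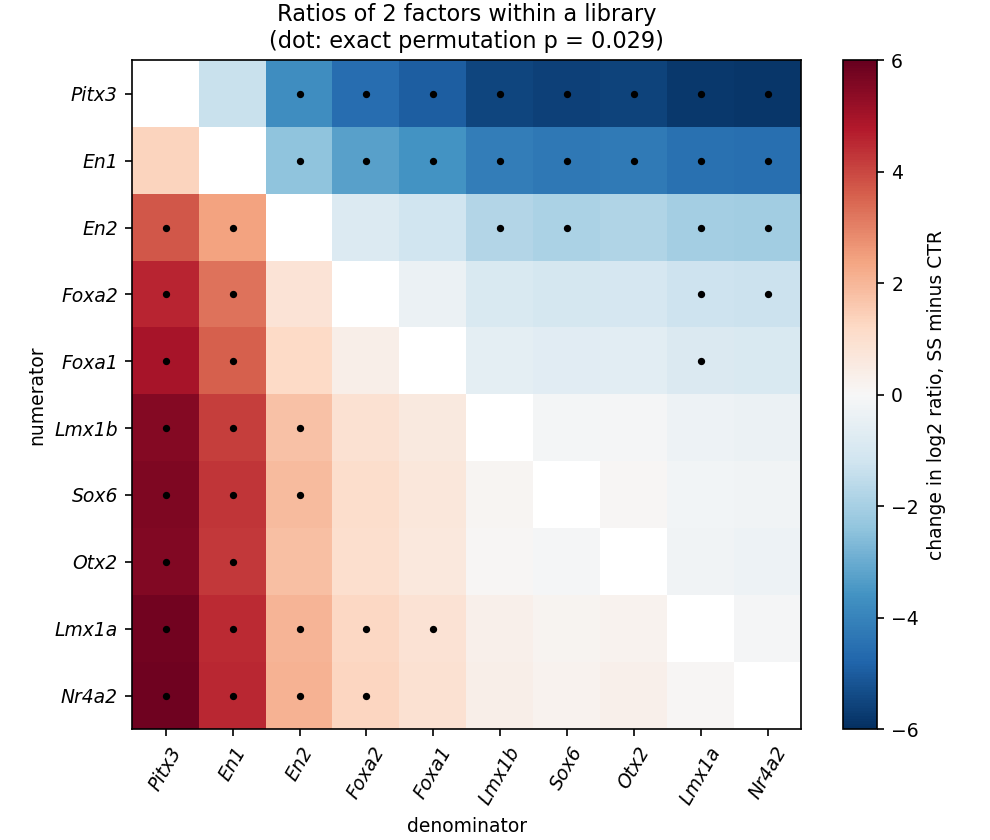
Change of the log2 ratio of 2 factors within a library (SS minus CTR, colour scale in log2 units) for each numerator and denominator, with a dot where the exact permutation p was 0.029. The rows of Pitx3 and En1 hold dots against 8 of the 9 other factors each, and no dot falls among Lmx1b, Sox6, Otx2, Lmx1a and Nr4a2.

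Per kb of exon, the mean level in CTR was highest for Nr4a2 (17.2 CPM per kb), followed by En1 (15.5), Lmx1a (8.22), Foxa1 (7.23), Lmx1b (6.85), Pitx3 (5.30), Foxa2 (3.60), En2 (2.61), Sox6 (1.74) and Otx2 (1.07), all in CPM per kb. The ranges of all neighbours in this order overlapped over the 4 CTR libraries. In SS the order was Nr4a2 (19.2), Lmx1a (9.01), Lmx1b (6.27), Foxa1 (4.83), Foxa2 (1.63), Sox6 (1.605), Otx2 (0.990), En1 (0.678), En2 (0.670) and Pitx3 (0.117), in CPM per kb. Here the ranges of Nr4a2 and Lmx1a, of Foxa1 and Foxa2, and of En2 and Pitx3 did not overlap, and those of the other neighbours did. En1 thus moved from the second place to the eighth and Pitx3 from the sixth to the last.

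Summed over the 10 factors, CTR libraries held 85.9, 55.2, 60.6 and 75.4 CPM per kb and SS libraries 43.3, 37.0, 41.7 and 58.0 CPM per kb. Only SS-5 exceeded a CTR library in this sum. En1 made up 20.96 ± 10.98% of the sum in CTR and 1.52 ± 0.74% in SS, and Pitx3 7.66 ± 0.997% and 0.223 ± 0.275% (SD, n = 4 each). Nr4a2 made up 25.7 ± 8.31% in CTR and 42.8 ± 2.43% in SS, and Lmx1a 11.9 ± 2.05% and 20.04 ± 2.43%. These shares add up to the whole in each library, so a lower share of En1 and Pitx3 raises the others.

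**Figure D4:**
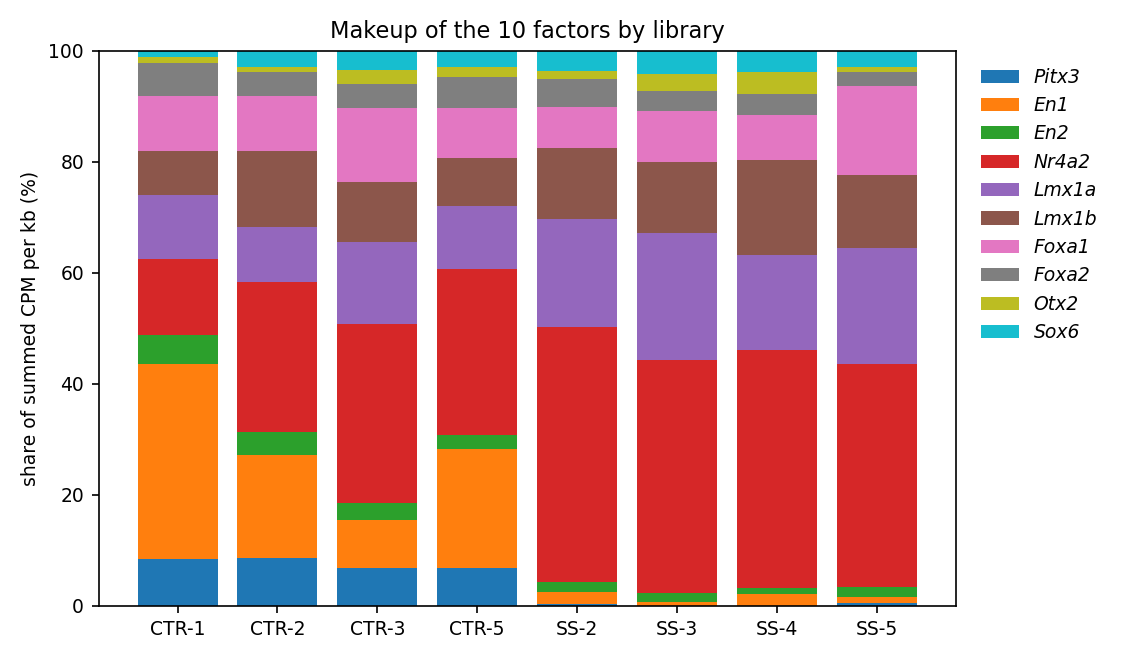
Share of each factor (%) in the summed CPM per kb of the 10 factors, for each of the 8 libraries. Pitx3, En1 and En2 together fill the lower part of each CTR bar, and in SS bars Nr4a2 alone holds 40.3% to 46.1%.

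Signals and early factors of the midbrain (15 genes, 10 tested) held no call in edgeR's test, and 1 gene, Cnpy1, had an unadjusted p under 0.05 (DESeq2 called Cnpy1 alone). Their median log2 fold change was -0.15. Cnpy1, a regulator of Fgf signalling whose gene lies 28.7 kb beyond En2 on chromosome 5 (28200819 to 28245806), had 5.01, 1.41, 2.07 and 9.12 CPM in CTR and 0.263, 0, 0 and 0.770 CPM in SS. SS-3 and SS-4, the libraries with no Pitx3, also held no Cnpy1, and the groups did not overlap. Cnpy1 had a log2 fold change of -4.12 (SE 1.23), with adjusted p of 0.65 in edgeR's test and 0.043 in DESeq2. When 1 library was omitted, DESeq2 called Cnpy1 only without SS-5, and it did not call Cnpy1 without CTR-5 and SS-5 together. Insig1, the nearest tested gene on the other side of En2, had a log2 fold change of 0.0012 (SE 0.12). Pax5, an early factor of the midbrain and hindbrain boundary, averaged 1.74 ± 0.50 CPM over CTR and 0.339 ± 0.349 CPM over SS mice (SD, n = 4) without overlap (log2 fold change -2.32, SE 1.09, edgeR adjusted p = 0.75). Pax2 and Msx1, low in all libraries, had log2 fold changes of 1.43 and -0.60, and Fgf8 held no count.

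Partners and later factors (16 genes, all tested) held 1 call in edgeR's test, and their median log2 fold change was -0.07. Pbx3, a homeodomain cofactor of DA neurons, fell from a CTR mean of 72.8 ± 6.74 CPM to 43.1 ± 1.49 CPM in SS mice (SD, n = 4), by 0.757 on the log2 scale (SE 0.11, edgeR adjusted p = 0.025). All SS libraries, at 42.1 to 45.3 CPM, lay below the lowest CTR library at 64.4 CPM, and the call was lost without CTR-5 or without any 1 of the SS libraries. Bcl11a, which marks a subset of DA neurons, had a log2 fold change of -0.51 (SE 0.19, edgeR adjusted p = 0.75).

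Of 13 genes on which Nr4a2, Pitx3 or the engrailed factors are known to act, 6 were called lower by edgeR's test, 10 had an unadjusted p under 0.05 and 9 did not overlap, all lower in SS. Their median log2 fold change was -1.31. Of all genes tested, 0.0847% were called lower, 3.7% were lower at an unadjusted p under 0.05 in edgeR's test and 2.21% were lower without overlap. Slc6a3, the dopamine transporter, was at 1.38% of CTR in SS, and Th, the rate-limiting enzyme of dopamine synthesis, at 6.33%. Gch1 (13.1%), which makes the cofactor of Th, Ddc (14.5%), the last enzyme of synthesis, and the vesicular transporter Slc18a2 (15.2%) came next, and Aldh1a1, an aldehyde dehydrogenase of ventral DA neurons, was at 41.8%. Slc6a3, Th and Ddc kept their calls whichever of the 8 libraries was removed, and the other 3 did not. Ret, the receptor of Gdnf, was at 40.4% (adjusted p = 0.054 from edgeR's test), the autoreceptor Drd2 at 46.4% (adjusted p = 0.12) and Dlk1 at 48.4% (adjusted p = 0.46), all without overlap between groups, and Vip at 36.1% (adjusted p = 0.73) with overlap. Ptpru, Klhl1 and Bdnf overlapped between groups, with log2 fold changes of 0.10, -0.10 and 0.10. Since several of these genes belong to the DA markers named before, their values are not independent of the marker sum.

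Paralogs outside the 10 factors (9 genes, 6 tested) held no call, and none had an unadjusted p under 0.05. Nr4a1 and Nr4a3, paralogs of Nr4a2 that respond to activity, had log2 fold changes of 0.72 (SE 0.39) and -0.63 (SE 0.59), and Otx1 had -0.69 (SE 0.38). Pitx1 and Crx held no count.

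**Figure D5:**
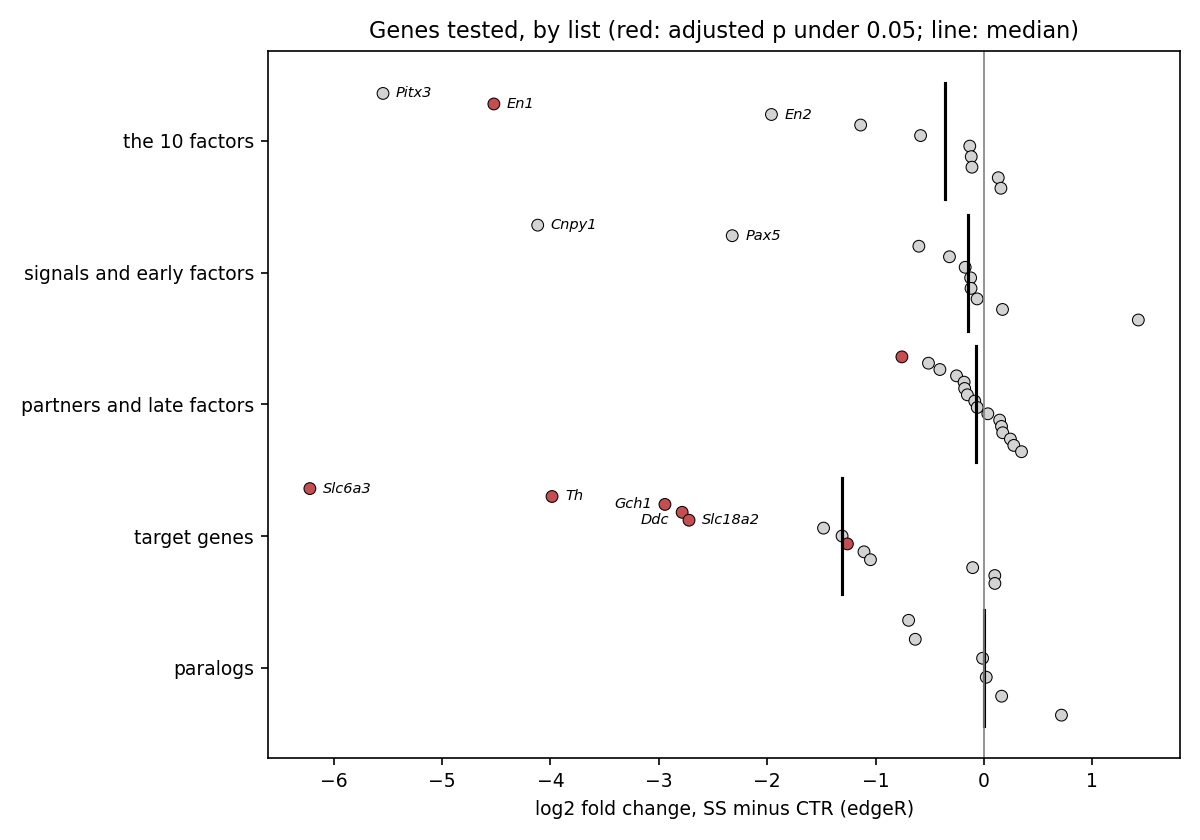
Log2 fold change (SS relative to CTR, edgeR) of each tested gene of the 10 factors and of 4 lists, with red points for an adjusted p under 0.05 and a line for the median of each list. The target genes have the lowest median at -1.31, and the medians of early signals, partners and paralogs lie between -0.15 and 0.0048.

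Lmx1a, Lmx1b and Foxa1 are also transcribed outside DA neurons, in the subthalamic and posterior hypothalamic region, and Sox6 in oligodendrocyte precursors. Factors of the hypothalamic and subthalamic region (9 genes, 8 tested, none called by edgeR or DESeq2) summed to 91.0 to 183 CPM in CTR and 136 to 191 CPM in SS, and oligodendrocyte precursor markers (5 of 5 tested, none called) to 340 to 438 and 402 to 481 CPM. Both sums overlapped between groups, and their part in the levels of these factors was not tested. GABA neuron markers (6 of 6 tested, none called) summed to 431 to 465 CPM in CTR and 364 to 560 CPM in SS. Gad1, Gad2 and Slc32a1 made up nearly all of this sum. Gata2, Gata3 and Tal1, named after their values were seen, averaged 7.04, 3.25 and 2.29 CPM in CTR. In SS they averaged 5.48, 0.313 and 2.26 CPM, each with overlap between groups. Serotonin neuron markers, whose cells share Lmx1b and engrailed factors, stayed at or below 1.12 CPM in every library. Choroid plexus markers, whose tissue expresses Otx2 and Lmx1a, summed to 4.75 to 22.5 CPM in the other CTR libraries, to 247 CPM in CTR-5 and to 11.2 to 15.5 CPM in SS. Markers of forebrain excitatory neurons summed to 270 to 874 CPM in CTR and 202 to 246 CPM in SS without overlap. Of these 5 genes, 3 had an unadjusted p under 0.05 in edgeR's test and none was called by it. DESeq2 called Nrgn, named after its value was seen (adjusted p = 7.1e-06). The sum was lower in SS, as were the 4 factors that did not overlap. Within CTR the order differed, as the sum was lowest in CTR-1 (270 CPM), where those 4 factors were highest. The part of these forebrain markers in the results was not tested. No marker of astrocytes, oligodendrocytes, microglia, endothelial cells, oculomotor neurons or cerebellar neurons was called, and the defining cerebellar marker Gabra6 held no count.

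Within groups, the factors did not all vary together over the 8 libraries. After subtraction of the group means, Pearson's r of log2 CPM was 0.86 for En1 with Foxa2, 0.83 for Nr4a2 with Sox6, 0.82 for Lmx1a with Foxa1 and 0.77 for Pitx3 with En2, and -0.73 for En2 with Sox6, values that describe 8 libraries sharing their depth and richness. Over the 4 DA markers (Th, Slc6a3, Slc18a2 and Ddc), r ran from 0.41 to 0.75 for En1, 0.39 to 0.74 for En2, 0.38 to 0.82 for Foxa2, 0.20 to 0.74 for Lmx1a and 0.10 to 0.61 for Pitx3. It ran from -0.095 to 0.72 for Foxa1, -0.25 to 0.73 for Lmx1b, -0.39 to 0.34 for Nr4a2, -0.14 to 0.066 for Otx2 and -0.60 to -0.094 for Sox6. The highest SS value belonged to SS-5 in 7 of the 10 factors, and the highest CTR value to CTR-1 in 6. The genes most like each factor by this measure (r of 0.968 to 0.999 over 8 libraries) were Zfp983 for Pitx3, Mindy3 for En1, Ddx49 for En2, Mfsd11 for Nr4a2, Rcor2 for Lmx1a, Anxa6 for Lmx1b, A230006K03Rik for Foxa1, Bambi for Foxa2, Pcsk5 for Otx2 and Hdx for Sox6. None of these 10 genes was called in edgeR's test. Each was the highest of 14701 genes over only 8 libraries, so its r is high by selection and shows no shared regulation. In SS-3 and SS-4, which held no Pitx3 count, the Pitx3 values behind its r are set by the prior count.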

How the data were processed

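The authors extracted total RNA from VTA punches, made libraries with the Universal Plus mRNA-Seq kit and sequenced single ends. Reads passed through Cutadapt, STAR (mm10) and HTSeq, and the authors deposited the resulting whole-number counts without normalization. Whether HTSeq counted by strand is not given in the sources used here. Samples were grouped by their labels into 4 CTR and 4 SS libraries. Depth ranged from 20036086 to 47319997 counts per library, and the limit set for a count of 0 is 3 counts, which reflects counting error alone.

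In R 4.3.3, genes were filtered with filterByExpr of edgeR 4.0.16 (minimum count 10, minimum total 15), which left 16538 genes, scaled with TMM and compared with glmQLFit and glmQLFTest, in a design of group alone, and p-values were adjusted over all genes tested (Benjamini-Hochberg, 0.05). The biological coefficient of variation was 0.384. The SE is the absolute log2 fold change divided by the square root of F, and the 95% intervals are not adjusted for the number of genes. Log2 CPM (prior count 2) and ratios between factors within a library were compared by exact permutation (two-sided, 70 assignments). Scripts were tested on simulated data.

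The members and gene lists were chosen with earlier results of these data known. The genes named are the 10 factors, up to 4 genes of each list with the smallest p and those called, the other target genes (named after their values were seen), DA markers, overlapping and some neighbouring genes, and the gene most like each factor. A few genes named by this rule are left unreported. Positions and exon lengths were taken from GENCODE M21 (GRCm38, the build of mm10), and the authors' Ensembl annotation was not used here. Promoters were taken from RefSeq (GRCm38.p6).

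The alternatives were DESeq2 1.42.0 with default options, limma voom (limma 3.58.1), the bias-adjusted and robust estimates of edgeR, DESeq2's size factors, upper-quartile normalization, no filter, a mean count of at least 50, mitochondrial and Gm genes left out, the replicate number as a block, each library left out, CTR-5 and SS-5 or CTR-1 and CTR-2 left out, and a prior count of 0.5. DESeq2 with libraries left out was added after the data were seen. In the counts of DESeq2 calls, a gene with no adjusted p counted as not called.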

Additional observations from a re-analysis of the deposited data

Results flagged for a closer look

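Of 20 groups (10 factors in CTR and in SS), 2 held a library far from the others by Dixon's ratio of the gap to the range, where chance gives about 1. For En2 in CTR, CTR-1 was highest at 15.7 CPM, with a ratio of 0.831. Without it the log2 fold change of En2 was -1.58 (edgeR adjusted p = 0.24). For Foxa1 in SS, SS-5 was highest at 30.8 CPM, with a ratio of 0.967. Without it the log2 fold change of Foxa1 was -1.10 (edgeR adjusted p = 0.19), compared with -0.58 over all libraries.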

How the results depend on the processing

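By edgeR's test 1 factor was called (En1). DESeq2 called 3 (Pitx3, En1 and En2), limma voom 0, and the bias-adjusted estimate, robust estimation, no filter, a mean count of at least 50, and mitochondrial and Gm genes left out each called 2 (Pitx3 and En1). Leaving out 1 library gave 0 to 1, with 0 without SS-4 and 0 without SS-5 (En1 adjusted p = 0.066 and 0.054), and 0 were called with CTR-5 and SS-5 left out, where DESeq2 called 1 (En1). In the 8 DESeq2 fits that omitted a library, En1 and En2 were called in 8, Pitx3 in 4 and Foxa1 in 1. The adjusted p of Pitx3 was 0.055 to 0.24 over the 8 fits without 1 library, and that of En2 0.12 to 0.93. Fewer libraries entered these fits, and the cause was not tested.

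Of the pathway genes, 7 were called. With the replicate number as a block, 4 were called and En1 stayed the 1 factor called. Same-numbered libraries correlated at -0.021 to 0.046 after subtraction of the group means, which gives no sign of a pairing by number and cannot exclude one. With CTR-5 and SS-5 left out 4 pathway genes were called, and without 1 library 3 to 8. There were 3 each without SS-3 and SS-4, and 4 each without CTR-5, SS-2 and SS-5. Over all genes 6 to 25 were called lower, or 60 by DESeq2.

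Signs turned for factors whose groups overlapped, at adjusted p of 0.94 or more: Nr4a2 to -0.13 with CTR-1 and CTR-2 left out, and with CTR-5 and SS-5 left out Lmx1a to -0.019, Otx2 to 0.20 and Sox6 to 0.017. Without 1 library, Lmx1a ranged from -0.036 to 0.23, Otx2 from -0.46 to 0.11 and Sox6 from -0.33 to 0.032.

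The lowest counts per library were those of Pitx3 (0 to 13 in SS). The part of depth in the intervals was not tested. The litter of each mouse is not in the labels.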
